A study of Mus musculus with 27 samples.

Results

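Il10 knockout mice kept specific pathogen free (SPF) were compared with wild-type mice at 12 weeks of age. The comparison used 6 of the 27 arrays of the series, the 3 titled 12SPF and the 3 titled 12WT, chosen by title alone. All 18193 genes that the arrays measured with a probe set of a single gene symbol were compared, each through 1 probe set, the one whose mean over the 27 arrays was highest. The study followed 3 kinds of mice, conventionally housed Il10 knockouts, SPF Il10 knockouts and conventionally housed wild types, at 7, 9 and 12 weeks, with 3 arrays of each kind at each age. RNA came from homogenized full-thickness colon, which holds mucosa and muscle wall together. The 12SPF mice differ from the 12WT mice in genotype and in housing at once, and no SPF wild types were analysed here, so the effects of the allele and of the housing cannot be told apart. The labels give neither the strain nor the kind of Il10 allele, and they do not say whether a sample pooled several animals. The submitters picked the samples of each group by colon length and by damage to the colon. They are therefore not a random draw of each group. The p-values and standard errors rest on a spread pooled within the 9 groups of all 27 arrays. They measure the spread of such picked samples only, and not that of the 12SPF and 12WT samples alone. The third kind carries the code CC in its titles, and it was read by elimination as the conventionally housed knockouts.

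Interleukin-10 is a secreted cytokine of T cells and macrophages that restrains inflammatory gene expression, largely through its receptor and the transcription factor STAT3 in myeloid cells. Mice without it can develop a spontaneous colitis that depends on gut microbes and in which interferon gamma and interleukin-17 responses have been described. Interferon gamma induces antigen presentation genes, guanylate-binding proteins and the chemokines that attract T cells, whereas interleukin-1, interleukin-6 family cytokines and TNF act through NF-kB and STAT3 on genes that attract neutrophils and on epithelial defence genes.

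The deposited values are log2 expression, so a difference of 1 is a doubling. They lay between 2.104 and 14.25, and the array medians between 4.92 and 4.99. Spearman correlations between the 6 arrays ran from 0.94 to 0.992 across genes. The labelled tissue was borne out by its markers, since Krt8 of simple epithelium was at 13.40 or above, the mucin Muc2 at 12.50 or above and the smooth muscle actin Acta2 at 11.80 or above in all 6. Wild-type replicate 2 had the largest gap of all arrays between the 3′ and 5′ probe sets of the actin control, 0.95 log2 against at most 0.72 elsewhere. SPF knockout replicate 2 stood closer to the wild types than its group mates did. Of the 691 genes that rose at least 2-fold, this array was the nearest of the 3 to the wild-type mean in 643, and of the 755 that fell at least 2-fold in 720. The median distance from the wild-type mean over those that rose was 1.65, 0.73 and 1.88 log2 in SPF replicates 1, 2 and 3, and over those that fell it was -1.62, -0.68 and -1.87. SPF replicate 3 stood apart in several pancreatic genes and wild-type replicate 3 in clock genes, as given with those lists. Per-array values below are given in the order of replicates 1, 2 and 3, SPF knockouts first.

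The transcript of Il10, the targeted gene, was higher in the SPF knockouts. Il10 read 7.05, 5.33 and 7.09 in the SPF knockouts and 3.59, 3.78 and 3.80 in the wild types, a rise of 2.77 ± 0.29 log2, where ± is the standard error of the fit (limma, adjusted p = 2.83e-06), and 4.80, 5.20 and 4.94 in the conventional knockouts of the same age. It has 1 probe set, whose place relative to the altered part of the gene is not given in the sources used here, so this value checks no label. The groups did not overlap.

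At 12 weeks the SPF knockouts differed from the wild types in both directions, with inflammatory genes among the largest rises and epithelial metabolic genes among the largest falls. With limma's moderated test, and p adjusted by Benjamini and Hochberg's method across the 18193 genes to stay under 0.05, 6329 genes were called (34.8%), 3305 higher (18.2%) and 3024 lower (16.6%). Counts of called list members below are to be read beside these shares of all genes. The median difference over all genes was 0.02 log2. In 6092 genes (33.5%) the 3 SPF values lay wholly above or wholly below the 3 wild-type values, and 4939 of the called genes were among them. The largest rises were in S100a8 and S100a9, the subunits of calprotectin, in the leucine-rich glycoprotein Lrg1, in Clca4b, of a family of epithelial chloride channel regulators, and in the chemokines Cxcl5 and Cxcl9. The largest falls were in Mptx1, a pentraxin made by the colon epithelium, in the cytochromes P450 Cyp2c55 and Cyp4b1, and in the clock output gene Dbp. Because whole tissue was read, fewer cells of a type and less RNA per cell cannot be told apart for any gene below. A fit of the 6 arrays alone, which has far fewer degrees of freedom and takes its spread from those arrays, called 1321 genes. Of the 181 called genes that the naming rule picked 84 missed the threshold there. Among them were Mptx1 (limma, adjusted p = 0.087), Fpr2 (0.0778) and Clca1 (0.0762). In that fit 11 of 12 MHC class I genes, 15 of 24 interferon gamma genes and 12 of 19 macrophage markers were higher, but only 3 calprotectin list genes, 6 interleukin-1 and interleukin-6 list genes and 10 cell cycle genes, and 6 xenobiotic, 3 smooth muscle, 3 fatty acid oxidation and 1 transport gene were lower. The goblet cell, fibroblast and Th17 lists had 0 calls there. Higher were 1 endothelial, 2 T cell and 3 CC chemokine list genes. Of the unfolded protein response genes 3 were higher and 1 lower. Leaving out 1 array gave between 4533 calls, without SPF replicate 1, and 7339, without SPF replicate 2.

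**Figure D1:**
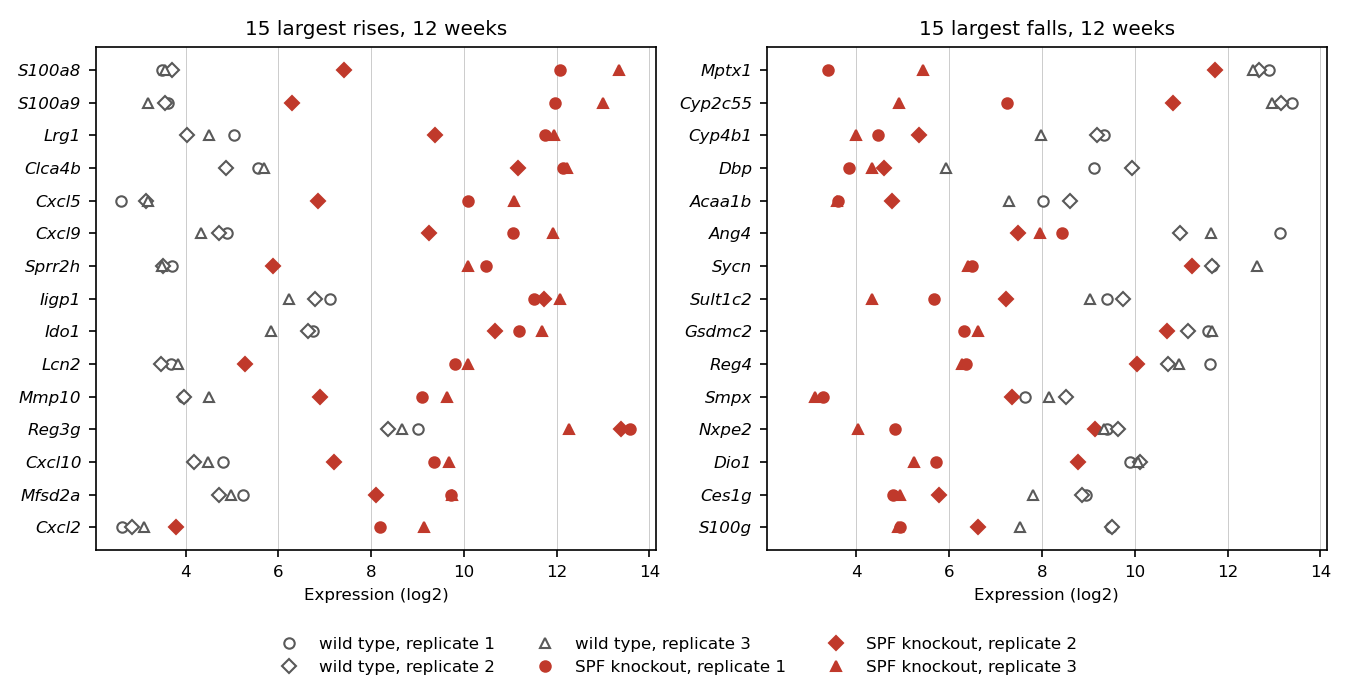
Log2 expression of the 15 largest rises (left) and the 15 largest falls (right), 1 gene per line, with filled red symbols for the 3 SPF knockout arrays and open symbols for the 3 wild-type arrays at 12 weeks (circle, diamond and triangle are replicates 1, 2 and 3). The groups do not overlap in any of the 30 genes by the way they were chosen, and the red diamond of SPF replicate 2 is the nearest to the wild types for S100a8, where it lies at 7.41 against 12.06 and 13.34.

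Genes of neutrophil attraction and calprotectin showed the largest rises. S100a8 read 12.06, 7.41 and 13.34 in the SPF knockouts and 3.49, 3.71 and 3.55 in the wild types. All SPF arrays lay far above all wild types, with replicate 2 lowest, and the difference was 7.35 ± 1.12 log2 (163-fold; adjusted p = 8.41e-05). Its partner S100a9 read 11.97, 6.30 and 13.01 in the SPF knockouts and 3.62, 3.55 and 3.18 in the wild types and rose by 6.97 ± 1.18 (adjusted p = 0.000194). The epithelial neutrophil chemokine Cxcl5 read 10.10, 6.86 and 11.09 in the SPF knockouts and 2.62, 3.14 and 3.19 in the wild types, a rise of 6.37 ± 0.87 (adjusted p = 3.66e-05). Cxcl2, another ligand of the neutrophil receptor Cxcr2, was near the wild-type level in SPF replicate 2 alone, at 8.20, 3.79 and 9.13 in the SPF knockouts and 2.63, 2.85 and 3.12 in the wild types (4.18 ± 0.85; adjusted p = 0.000733). The siderophore-binding protein Lcn2, which withholds iron from bacteria, rose by 4.73 ± 0.82, Cxcl3 by 3.22 ± 0.82 and Cxcl1 by 2.70 ± 0.45. Of the 11 measured members of the calprotectin and neutrophil attraction list, 8 were higher and 0 lower, beside 18.2% of all genes higher, and the median difference was 3.22 against 0.02 over all genes. The median distance of the list from the wild-type mean was 3.98, 0.93 and 5.41 in SPF replicates 1, 2 and 3. The growth factor Csf3 (1.05), the receptor Cxcr2 (0.31) and the platelet chemokine Ppbp (-0.06) did not pass the test.

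Neutrophil markers were raised in replicates 1 and 3 and hardly in replicate 2. Of their 14 measured members 10 were higher and 0 lower, with a median of 1.61, and the list stood 2.21, 0.19 and 2.68 above the wild types in replicates 1, 2 and 3. The formyl peptide receptor Fpr2 rose by 3.74 ± 0.77 (adjusted p = 0.000789) and the C-type lectin Clec4e by 3.54 ± 0.77 (adjusted p = 0.00129). The gelatinase Mmp9 read 6.82, 4.52 and 7.55 in the SPF knockouts and 3.97, 4.07 and 4.25 in the wild types. It rose by 2.20 ± 0.44 (adjusted p = 0.000663), with SPF replicate 2 the nearest to the wild types. Genes of immature neutrophil granules, Mpo (0.05) and Elane (-0.17), did not pass the test. All markers of this list fall among the 40% of genes with the lowest mean over the arrays, and in the fit of the 6 arrays alone none was called.

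The interferon gamma response rose in all 3 SPF arrays. The chemokine Cxcl9, a ligand of Cxcr3 on activated T cells, read 11.05, 9.24 and 11.92 in the SPF knockouts and 4.89, 4.72 and 4.33 in the wild types, a rise of 6.09 ± 0.69 (adjusted p = 5.57e-06). Cxcl10, a second ligand of that receptor, read 9.35, 7.19 and 9.67 in the SPF knockouts and 4.82, 4.19 and 4.47 in the wild types and rose by 4.24 ± 0.60 (adjusted p = 4.83e-05). The groups lay well apart for both, and SPF replicate 2 was again the lowest of its group. The immunity-related GTPase Iigp1, which acts on vacuoles of intracellular microbes, read 11.51, 11.73 and 12.08 in the SPF knockouts and 7.11, 6.79 and 6.23 in the wild types. Here replicate 2 was not the lowest SPF array, and the rise was 5.07 ± 0.48 (adjusted p = 1.23e-06). Its relative Igtp rose by 3.40 ± 0.37 (adjusted p = 4.02e-06), and Ido1, which breaks down tryptophan, by 4.78 ± 0.56 (adjusted p = 6.31e-06). Ifng itself read 6.75, 3.86 and 7.41 in the SPF knockouts and 2.91, 2.92 and 2.60 in the wild types, a rise of 3.20 ± 0.69 (adjusted p = 0.00113), with replicate 2 about 1 log2 unit above the wild types. Of 24 measured members 20 were higher and 0 lower, with a median of 2.24. The interleukin-12 subunits Il12a (0.18) and Il12b (-0.07) and Il18 (-0.43) did not pass the test.

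Antigen presentation genes stood at like heights in the 3 SPF arrays. All 12 measured members of the immunoproteasome and MHC class I list were higher, with a median of 1.19, and the list stood 1.20, 1.12 and 1.25 above the wild types in replicates 1, 2 and 3. The peptide transporter subunit Tap1 read 9.68, 9.38 and 10.01 in the SPF knockouts and 6.53, 5.99 and 6.17 in the wild types and rose by 3.46 ± 0.29 (adjusted p = 4.65e-07). The immunoproteasome subunit Psmb9 read 9.97, 9.92 and 10.33 in the SPF knockouts and 7.38, 7.61 and 7.12 in the wild types and rose by 2.70 ± 0.25 (adjusted p = 1.11e-06). The spread within either group was small beside the gap between them. Nlrc5, the transactivator of class I genes, rose by 3.70 ± 0.39 (adjusted p = 2.8e-06), and the light chain B2m by 1.03 ± 0.13. In the MHC class II list 6 of 10 measured members were higher and 0 lower, with a median of 1.92. The invariant chain Cd74 read 12.83, 12.66 and 12.75 in the SPF knockouts and 9.71, 8.75 and 9.71 in the wild types, a rise of 3.36 ± 0.37 (adjusted p = 4.02e-06). The class II transactivator Ciita rose by 1.71 ± 0.29 and H2-Ab1 by 2.69 ± 0.32, while H2-Oa (0.61) and H2-Ob (-0.07), which restrain peptide loading mainly in B cells, did not pass the test.

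The promoters below belong to called genes of the interferon and neutrophil lists, and the 6 printed were picked after the search because they hold a match. The windows of S100a8 and Lcn2 hold none of the motifs, nor do the 225 bases between the divergent starts of Tap1 and Psmb9. Each printed window is the 250 bases before a RefSeq transcription start (build GRCm38.p6), 5′ to 3′ on the strand of the gene, and the capitals mark the matches of a script. The letters searched on both strands were GAAANNGAA (core of the interferon-stimulated response element), TTCNNNGAA (gamma-activated site, bound by STAT factors), GGGANTTTC (a form of the NF-kB site) and CAAAGTCCA (a form of the HNF4 site). No match of one marked motif overlaps another in these windows. Cxcl9 lies at chr5:92328080-92328329 (minus strand), Cxcl10 at chr5:92348890-92349139 (minus), Igtp at chr11:58199306-58199555 (plus), S100a9 at chr3:90695722-90695971 (minus), Cxcl2 at chr5:90903649-90903898 (plus) and Cxcl3 at chr5:90785851-90786100 (plus).
Cxcl9: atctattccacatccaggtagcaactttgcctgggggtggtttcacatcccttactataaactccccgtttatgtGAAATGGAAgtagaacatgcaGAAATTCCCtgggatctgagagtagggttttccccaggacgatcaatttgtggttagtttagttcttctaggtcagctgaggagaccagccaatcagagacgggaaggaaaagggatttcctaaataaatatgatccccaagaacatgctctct
Cxcl10: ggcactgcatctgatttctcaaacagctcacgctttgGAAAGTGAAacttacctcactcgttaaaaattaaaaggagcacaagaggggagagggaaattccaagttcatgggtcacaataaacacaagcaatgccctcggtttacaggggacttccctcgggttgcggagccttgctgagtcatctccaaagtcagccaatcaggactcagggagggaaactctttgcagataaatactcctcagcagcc
Igtp: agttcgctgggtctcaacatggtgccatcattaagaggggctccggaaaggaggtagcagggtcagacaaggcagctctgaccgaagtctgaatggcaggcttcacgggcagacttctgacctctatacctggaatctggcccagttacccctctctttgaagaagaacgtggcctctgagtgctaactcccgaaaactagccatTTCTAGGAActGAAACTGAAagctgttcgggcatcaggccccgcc
S100a9: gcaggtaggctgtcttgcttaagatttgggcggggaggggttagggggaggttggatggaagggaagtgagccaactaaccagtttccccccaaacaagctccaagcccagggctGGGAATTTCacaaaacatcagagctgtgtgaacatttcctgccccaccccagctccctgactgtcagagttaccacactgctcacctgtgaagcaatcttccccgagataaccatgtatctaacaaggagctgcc
Cxcl2: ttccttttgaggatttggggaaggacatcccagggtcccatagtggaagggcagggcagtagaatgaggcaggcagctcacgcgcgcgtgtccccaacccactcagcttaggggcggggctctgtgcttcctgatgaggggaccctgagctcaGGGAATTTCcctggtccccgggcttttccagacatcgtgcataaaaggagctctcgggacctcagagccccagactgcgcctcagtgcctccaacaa
Cxcl3: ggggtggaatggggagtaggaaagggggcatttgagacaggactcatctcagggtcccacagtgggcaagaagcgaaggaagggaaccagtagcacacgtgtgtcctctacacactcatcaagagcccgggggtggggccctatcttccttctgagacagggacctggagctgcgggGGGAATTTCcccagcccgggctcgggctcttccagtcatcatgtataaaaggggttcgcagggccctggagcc

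The Cxcl9 window holds the interferon motif as GAAATGGAA, 175 bases before the start, and the NF-kB motif on the opposite strand as GAAATTCCC, 154 bases before it. Cxcl10 has GAAAGTGAA at 213 bases. Igtp has GAAACTGAA at 34 bases and the gamma-activated form TTCTAGGAA at 45 bases. S100a9, Cxcl2 and Cxcl3 share the same letters, GGGAATTTC, at 135, 97 and 73 bases. Over all 32851 windows of the table, 7.13% hold the interferon motif, 7.02% the gamma-activated motif, 0.941% the NF-kB motif and 0.384% the HNF4 motif. Counted by gene, as the shares below are, they are held by 7.515%, 7.425%, 1.114% and 0.512% of the 14452 measured genes with a window. Of the 18 interferon gamma list genes with a window, 9 hold the interferon motif and 7 the gamma-activated motif. Of the 9 calprotectin list genes with a window, 5 hold the NF-kB motif, namely S100a9, Cxcl1, Cxcl2, Cxcl3 and Cxcr2, of which Cxcr2 was not called, and 0 hold the interferon motif. Among genes at least 2-fold higher, 13.7% of 541 with a window hold the interferon motif and 3.51% the NF-kB motif, and among those at least 2-fold lower 8.17% and 1.33% of 600. Of 27 xenobiotic list genes with a window 2 hold the HNF4 motif (7.407%) and 4 the interferon motif (14.815%). The HNF4 motif is held by 0.924% of the genes at least 2-fold higher and 1.0% of those at least 2-fold lower. A match is a description of letters and not of binding.

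Genes of the type I interferon response rose in part. Of 19 measured members 12 were higher and 0 lower, with a median of 0.63. The nucleic acid sensor Zbp1 rose by 2.56 ± 0.22 (adjusted p = 4.65e-07), the deconjugating enzyme Usp18 by 2.21 ± 0.43 and Ifit2 by 1.91 ± 0.37. Members often used as its core markers did not pass the test, among them Ifit1 (-0.10), Rsad2 (-0.26) and Irf7 (-0.20).

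Cytokines of the interleukin-1 and interleukin-6 families rose, mostly through replicates 1 and 3. Il1b, the secreted product of activated myeloid cells, read 9.88, 6.08 and 10.32 in the SPF knockouts and 4.76, 5.07 and 4.92 in the wild types. Replicate 2 was about 1 log2 unit above the wild types and the others about 5, for a difference of 3.85 ± 0.72 (adjusted p = 0.000426). Il6 read 7.34, 2.79 and 5.94 in the SPF knockouts and 2.81, 2.69 and 2.63 in the wild types, so the groups overlapped through SPF replicate 2 although the gene was called (adjusted p = 0.00227). Il11, a stromal cytokine of the same family, read 7.19, 5.41 and 6.96 in the SPF knockouts and 4.19, 4.33 and 4.32 in the wild types, with no overlap and a rise of 2.24 ± 0.31 (adjusted p = 4.42e-05). Socs3, the feedback inhibitor of STAT3 signalling, read 11.25, 9.96 and 11.12 in the SPF knockouts and 6.96, 6.80 and 6.66 in the wild types and rose by 3.97 ± 0.45 (adjusted p = 5.41e-06). The transcription factor Cebpd rose by 2.09 ± 0.18 (adjusted p = 4.65e-07). In the list 14 of 17 measured members were higher and 0 lower, with a median of 1.87. The median was 1.20 without SPF replicate 3 and 1.09 with the mean of each gene's probe sets. The list stood 2.25, 0.18 and 2.29 above the wild types in replicates 1, 2 and 3. The receptor genes Il6st (-0.27) and Il1r1 (-0.26) did not pass the test.

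Of the TNF and NF-kB feedback list 11 of 15 measured members were higher and 0 lower, with a median of 1.18. Without SPF replicate 3 the median was 0.73, with 9 higher and 1 lower. The TNF receptor Tnfrsf1b rose by 2.80 ± 0.32 (adjusted p = 5.56e-06), Tnfaip2 by 2.90 ± 0.49 and Tnf by 1.33 ± 0.25. Of 16 measured CC chemokine genes and receptors 10 were higher and 1 lower, with a median of 0.72 that was 0.40 without SPF replicate 3. The monocyte attractant Ccl2 rose by 2.34 ± 0.45, its receptor Ccr2 by 2.20 ± 0.34 and Ccl8 by 3.03 ± 0.39. Ccl25, made chiefly by the small intestine, fell by 0.27, and 0 genes of the list were lower without SPF replicate 1, SPF replicate 2 or wild-type replicate 1.

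Helper T cell lists had medians of 0.14 (Th17 and interleukin-22), 0.18 (Th2) and 0.34 (interleukin-10 and regulatory T cells). These moved with single arrays, the first to 0.42 without SPF replicate 2, 0.28 without wild-type replicate 3 and 0.09 without wild-type replicate 2, the second to 0.07 without wild-type replicate 1 and 0.36 without wild-type replicate 2, and the third to 0.56 without SPF replicate 2. In the Th17 and interleukin-22 list 4 of 9 measured members were higher and 1 lower, and without SPF replicate 1 only 2 were higher. Il17a read 5.85, 3.78 and 5.61 in the SPF knockouts and 3.69, 3.87 and 3.73 in the wild types, with overlap, and its call was lost without SPF replicate 1. The decoy receptor Il22ra2, which binds interleukin-22, fell by 1.28 ± 0.30. In the Th2 and alternative activation list 4 of 10 were higher, and Il4 (-0.15), Il5 (-0.01) and Il13 (0.12) did not pass the test. Chil3, a chitinase-like protein of myeloid cells, read 9.29, 2.84 and 7.88 in the SPF knockouts and 2.77, 2.87 and 3.16 in the wild types, again with SPF replicate 2 among the wild types. Of the interleukin-10 and regulatory T cell list 6 of 14 were higher and 0 lower. Ctla4 rose by 1.31 ± 0.26, whereas Foxp3, the defining factor of regulatory T cells, differed by -0.09 and did not pass the test.

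Epithelial defence genes moved in both directions. Of 20 measured members 10 were higher and 3 lower, with a median of 1.30. Without SPF replicate 2 the number lower was 6. Lrg1, an acute-phase glycoprotein, read 11.75, 9.37 and 11.94 in the SPF knockouts and 5.04, 4.03 and 4.51 in the wild types and rose by 6.50 ± 0.66 (adjusted p = 2.19e-06). The lectin Reg3g, which kills Gram-positive bacteria, read 13.59, 13.39 and 12.27 in the SPF knockouts and 9.00, 8.37 and 8.67 in the wild types. All SPF arrays, replicate 2 included, lay more than 3 log2 units above every wild type, and the rise was 4.40 ± 0.66 (adjusted p = 7.75e-05). The secreted phospholipase Pla2g2a rose by 3.76 ± 0.35 (adjusted p = 1.11e-06), and Nos2, which makes nitric oxide, by 3.01 ± 0.45. In the other direction Mptx1 read 3.39, 11.73 and 5.43 in the SPF knockouts and 12.89, 12.68 and 12.56 in the wild types. Replicate 2 was within 1 log2 unit of the wild types and the other SPF arrays were lower by more than 7, giving -5.86 ± 1.38 (adjusted p = 0.00232). The ribonuclease Ang4 fell by 3.96 ± 0.88 and the lectin Reg4 by 3.53 ± 0.90. Outside the list, the epithelial chloride channel regulator family member Clca4b rose by 6.46 ± 0.83 (adjusted p = 1.94e-05) and Sprr2h, of the cornified envelope family, by 5.24 ± 0.86 (adjusted p = 0.00015).

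Macrophage and monocyte markers rose broadly, with 16 of 19 measured members higher, 0 lower and a median of 1.80. The endotoxin co-receptor Cd14 rose by 1.97 ± 0.22 (adjusted p = 4.02e-06), the complement subunit C1qb by 1.82 ± 0.29 and Cd68 by 1.86 ± 0.34. Cytotoxic lymphocyte markers rose in part, 4 of 10, led by granzyme B. Gzmb read 8.10, 7.05 and 8.22 in the SPF knockouts and 5.20, 5.01 and 4.48 in the wild types, with no overlap and a rise of 2.89 ± 0.31 (adjusted p = 4.02e-06), while perforin Prf1 (-0.17) did not pass the test. Of 14 T cell markers 8 were higher, Cd3d by 1.60 ± 0.34 and Cd3g by 1.61 ± 0.33. That count was 5 without SPF replicate 1 and 4 without SPF replicate 3. No B cell marker was called by limma among 12, though 2 were higher without SPF replicate 2, 1 higher without wild-type replicate 1 and 1 lower without SPF replicate 3, and the median was 0.16 and, at the other sign, -0.15 without SPF replicate 3. In plasma cells 1 of 9 was called, Prdm1, and in mast cells and eosinophils 1 of 12, the histamine-forming enzyme Hdc. Of 9 dendritic cell markers 4 were higher, and 2 without SPF replicate 3.

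**Figure D2:**
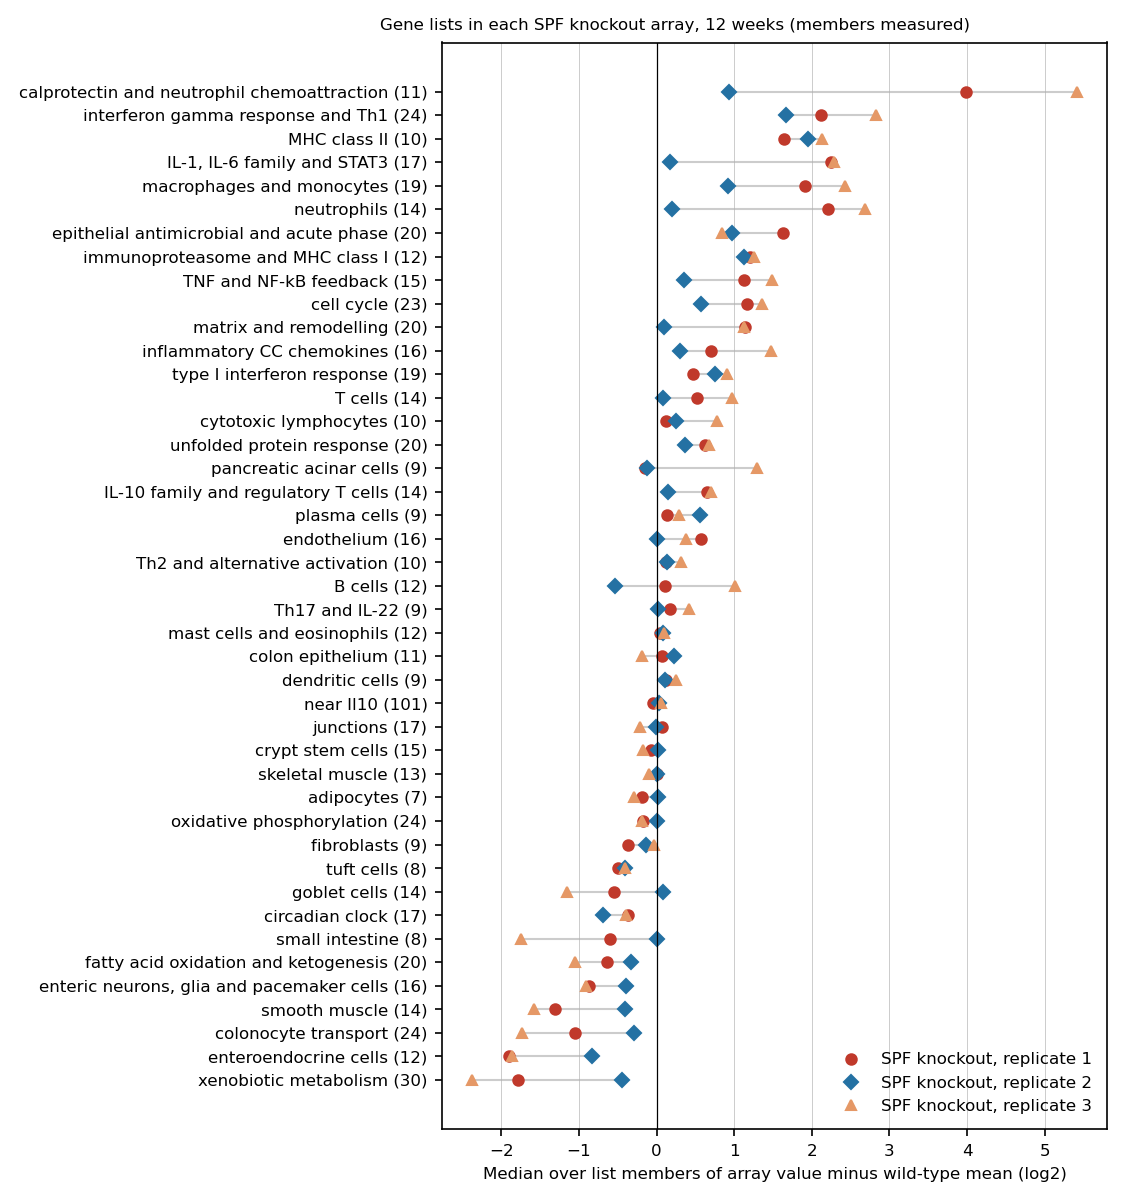
For 43 gene lists (vertical axis), the median over members of the value on 1 SPF knockout array minus the wild-type mean at 12 weeks, in log2 units (red circle, blue diamond and orange triangle are replicates 1, 2 and 3), ordered by the median difference of the list. Replicates 1 and 3 lie close together in most lists, replicate 2 lies nearer 0 for the calprotectin list (0.93) and the smooth muscle list (-0.41), and all 3 lie together for the MHC class I list (1.12 to 1.25).

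Proliferation genes rose almost throughout. Of 23 measured cell cycle genes 21 were higher and 0 lower, with a median of 1.04. The ribonucleotide reductase subunit Rrm2 rose by 2.09 ± 0.36, the mitotic kinase Aurka by 1.74 ± 0.28 and the proliferation marker Mki67 by 0.66 ± 0.15. In the matrix and remodelling list 12 of 20 were higher and 1 lower, with a median of 1.00. The stromelysin Mmp10 read 9.09, 6.91 and 9.65 in the SPF knockouts and 3.94, 3.97 and 4.51 in the wild types, a rise of 4.41 ± 0.59 (adjusted p = 2.92e-05), and the inhibitor Timp1 rose by 2.37 ± 0.46. Of the 12 members that rose 7 were matrix metalloproteinases, and of the fibrillar collagens Col1a1 rose by 1.16 ± 0.25 while Col3a1 (-0.04) and Col1a2 (0.13) did not pass the test. Of 20 unfolded protein response genes 14 were higher and 1 lower, and 9 were higher without wild-type replicate 2. Creld2 rose by 1.5 ± 0.30 and the chaperone Hspa5 by 0.73 ± 0.18.

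Genes that handle foreign compounds fell together. Of 30 measured xenobiotic metabolism genes 23 were lower and 0 higher, beside 16.6% of all genes lower, with a median of -1.54. The cytochrome Cyp2c55 read 7.25, 10.82 and 4.92 in the SPF knockouts and 13.40, 13.16 and 12.96 in the wild types. Every SPF array was lower than every wild type, replicate 2 by about 2 log2 units and replicate 3 by about 8, and the difference was -5.51 ± 0.96 (adjusted p = 0.000236). Cyp4b1 read 4.46, 5.34 and 4.0 in the SPF knockouts and 9.34, 9.19 and 7.98 in the wild types, with all SPF arrays below all wild types by more than 2 log2 units (-4.24 ± 0.50; adjusted p = 6.48e-06). The efflux pump Abcb1a read 7.88, 9.70 and 6.81 in the SPF knockouts and 11.68, 11.34 and 10.81 in the wild types and fell by 3.15 ± 0.53 (adjusted p = 0.000171). The sulfotransferase Sult1a1 fell by 3.07 ± 0.72 and the monooxygenase Fmo5 by 2.94 ± 0.54. The receptors that induce such genes did not pass the test, with Nr1i2 at -0.36, Nr1i3 at -0.29 and Ahr at -0.30. The list stood -1.78, -0.44 and -2.37 from the wild types in SPF replicates 1, 2 and 3.

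Colonocyte transport and fatty acid oxidation genes fell as well. Of 24 transport genes 15 were lower and 1 higher, with a median of -1.16, which was -0.67 without SPF replicate 3. The chloride-bicarbonate exchanger Slc26a3 read 10.49, 11.86 and 10.10 in the SPF knockouts and 12.05, 12.45 and 12.42 in the wild types, with no overlap and a fall of 1.49 ± 0.29 (adjusted p = 0.000508). The water channel Aqp8 read 5.47, 10.83 and 6.92 in the SPF knockouts and 10.36, 10.46 and 10.84 in the wild types, so that SPF replicate 2 lay among the wild types while the others were lower by more than 3 log2 units (adjusted p = 0.0037). The sodium channel subunits Scnn1a (-0.43) and Scnn1b (-0.53) did not pass the test. Of 20 fatty acid oxidation genes 15 were lower and 1 higher, with a median of -0.69. The regulator Ppara fell by 2.45 ± 0.50, the peroxisomal enzyme Ehhadh by 1.63 ± 0.31 and the enterocyte fatty acid-binding protein Fabp2 by 2.54 ± 0.46. Oxidative phosphorylation genes moved little, 5 of 24 lower and 1 higher with a median of -0.11, and the number lower was 9 without SPF replicate 2 and 3 without SPF replicate 3. Their share called was 25.0%, beside 34.8% of all genes.

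General epithelial markers did not fall with these genes. Krt8 differed by 0.01, Epcam by -0.09 and Vil1 by 0.02, none of which passed the test, and of 11 measured markers 2 were higher and 1 lower with a median of 0.12. That median was -0.04 without SPF replicate 2 and -0.05 without wild-type replicate 2. Enteroendocrine markers did fall, 10 of 12, with a median of -1.51. The granule protein Chgb read 7.83, 9.57 and 7.93 in the SPF knockouts and 11.30, 10.79 and 10.44 in the wild types, with no overlap and a fall of 2.40 ± 0.37 (adjusted p = 9.25e-05), and Tph1, the serotonin-forming enzyme, fell by 2.72 ± 0.45. Of 14 goblet cell markers 7 were lower, and the count was 11 without SPF replicate 2, 3 without SPF replicate 3 and 4 without wild-type replicate 1. The median of -0.58 was -0.89 without SPF replicate 2 and -0.34 without SPF replicate 3. Clca1, a secreted mucus protein, read 10.50, 13.07 and 10.42 in the SPF knockouts and 13.98, 13.15 and 13.68 in the wild types and fell by 2.27 ± 0.43 (adjusted p = 0.000468), with SPF replicate 2 just below the lowest wild type. The goblet factor Spdef (0.19) and Tff3 (-0.38) did not pass the test.

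Among tuft cell markers Rgs13 fell by 2.49 ± 0.41 and Dclk1 by 1.58 ± 0.27, 4 of 8 were lower and 1 higher, and the number lower was 2 without SPF replicate 3. Crypt stem cell markers split. Lgr5, the Wnt-responsive stem cell receptor, read 4.81, 5.71 and 5.22 in the SPF knockouts and 6.71, 6.55 and 6.27 in the wild types, all SPF arrays below all wild types, and fell by 1.26 ± 0.20 (adjusted p = 0.000111). Myc rose by 1.24 ± 0.20, and of 15 markers 3 were higher and 3 lower, with 1 higher without SPF replicate 1. Of 17 junction genes 2 were higher and 3 lower, the latter including occludin, Ocln, which fell by 1.01 ± 0.16. Without SPF replicate 1 the number lower was 1.

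All 14 measured smooth muscle genes were lower, with a median of -1.05. The smooth muscle myosin Myh11 read 10.45, 11.36 and 9.76 in the SPF knockouts and 12.02, 12.05 and 12.03 in the wild types. The wild types lay close together and every SPF array was lower, by 1.51 ± 0.24 on average (adjusted p = 0.000132). The intermediate filament protein Synm fell by 1.59 ± 0.22 (adjusted p = 3.75e-05), and Acta2 by 0.87 ± 0.17. The list stood -1.31, -0.41 and -1.58 from the wild types in SPF replicates 1, 2 and 3. Genes of enteric neurons, glia and pacemaker cells fell in 11 of 16 and rose in 1, with a median of -0.80. With the mean of each gene's probe sets 7 were lower and 0 higher, and the median was -0.41. The synaptic protein Snap25 fell by 1.76 ± 0.27 (adjusted p = 8.17e-05) and Kit, the receptor of pacemaker cells, by 1.62 ± 0.38. The 1 gene that was higher, the glial marker Gfap, was not called without any 1 of SPF replicates 1 and 3 or wild-type replicates 2 and 3. The number lower was 6 without SPF replicate 1 and 7 without SPF replicate 3 or wild-type replicate 2. Whether the share of muscle wall to mucosa differed between the samples was not tested.

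Vessel genes of leukocyte adhesion rose, Icam1 by 2.61 ± 0.49, Selp by 1.65 ± 0.38 and Vcam1 by 1.56 ± 0.34, and of 16 endothelial markers 5 were higher and 2 lower, with Pecam1 at -0.21 not called. Of 9 fibroblast markers 3 were lower, and 1 without SPF replicate 1 or 3. Shares called were 43.8% of endothelial and 33.3% of fibroblast markers, beside 34.8% of all genes. Markers of tissue beside the colon were low or uneven. Of the pancreatic acinar genes some were highest in SPF replicate 3, among them Cpb1, which read 3.11, 3.24 and 6.72 in the SPF knockouts and 2.96, 3.59 and 3.55 in the wild types. Of 9 such genes 0 were higher and 2 lower, Cela1 and Clps, neither of which was raised in that array. The list's median of 0.39 was -0.17 without it and 0.61 without SPF replicate 1. Of 13 skeletal muscle genes 1 was higher and 3 lower, of 7 adipocyte genes 2 were lower, of 8 small intestine genes 3 were lower with a median of -0.69 (-1.18 without SPF replicate 2 and -0.34 without wild-type replicate 1), and of 3 erythroid genes 1 was higher. Without SPF replicate 3 each of the pancreatic, skeletal muscle, adipocyte and small intestine lists had 1 gene lower. The shares called of these lists were 22.2%, 30.8%, 28.6% and 37.5%, near or below that of all genes. Limma called none of the 4 sex-linked genes, and 1 or 2 were called without SPF replicate 1, SPF replicate 2 or a wild-type array.

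Clock genes moved in both directions. Of 17 measured clock genes 7 were lower and 1 higher, with a median of -0.65, and 3 were higher without wild-type replicate 3. The median was -0.37 without wild-type replicate 2, -0.38 without SPF replicate 2 and -0.42 without wild-type replicate 1. The output gene Dbp read 3.83, 4.59 and 4.34 in the SPF knockouts and 9.12, 9.94 and 5.93 in the wild types, with no overlap although wild-type replicate 3 was far below the others, and fell by 4.07 ± 0.67 (adjusted p = 0.000149). Its counterpart repressor Nfil3 read 8.05, 7.37 and 7.54 in the SPF knockouts and 5.37, 4.98 and 6.18 in the wild types and rose by 2.14 ± 0.24 (adjusted p = 5.41e-06), while the core factors Arntl (0.37) and Clock (-0.01) did not pass the test. The labels give no hour of sampling.

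Between the SPF knockouts and wild types of 12 weeks the neighbourhood of Il10 did not stand apart in its share of calls. Of 101 measured genes within 5 Mb of Il10 on chromosome 1, 20 were higher and 16 lower. That share of 35.6% lay near the 34.8% over all genes, and the counts were 15 and 9 without SPF replicate 1 or 3 and 19 and 9 without wild-type replicate 3. In some other comparisons the share lay above that of all genes. In SPF knockouts of 9 weeks 12 were higher and 10 lower, beside 11.8% of all genes called. In conventional knockouts of 9 weeks 23 were higher and 14 lower, beside 24.0%. In those of 12 weeks 1 was higher and 1 lower, beside 0.451%, and in SPF knockouts of 7 weeks 1 was higher, beside 0.055%. Between SPF and conventional knockouts of 12 weeks 18 were higher and 16 lower, beside 24.6%. For the change from 7 to 12 weeks it did not, with 2 upward and 6 downward beside 8.92%.

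Set against the conventional knockouts of 12 weeks, the SPF knockouts again had the higher inflammatory and the lower metabolic values. S100a8 read 3.43, 3.56 and 3.46 in the conventional knockouts, at the wild-type level. Il1b read 5.08, 5.11 and 4.79 there, also at that level. Tap1 read 7.86, 7.90 and 7.76 and Cd74 11.48, 11.72 and 11.61, between the wild types and the SPF knockouts. The SPF knockouts exceeded the conventional ones by 7.45 ± 1.12 for S100a8 (adjusted p = 0.00109), by 1.85 ± 0.29 for Tap1 (adjusted p = 0.00125) and by 1.15 ± 0.37 for Cd74 (adjusted p = 0.0265). The Cd74 call was lost without any 1 of the conventional arrays and without SPF replicate 1 or 3. In this comparison 4480 genes were called (24.6%), 2466 higher and 2014 lower, with 1357 without SPF replicate 3, 2176 without SPF replicate 1 and 2922 without conventional replicate 2. A fit of these 6 arrays alone called 20. Of the 30 genes with the largest changes against the wild types 27 were called here too, all but Reg3g, Ang4 and Dbp, and 22 without SPF replicate 3. These 30 were picked with the same SPF arrays, so the choice favours such calls and the count is not independent support. In the interferon gamma list 18 of 24 were higher, in the MHC class I list 9 of 12, and in the smooth muscle list 12 of 14 were lower. In the xenobiotic list 22 of 30 were lower, and 9 without SPF replicate 3. Conventional knockouts against the same wild types gave 82 calls (0.451%), with a list median of 0.12 for calprotectin, 0.63 for interferon gamma and 0.66 for MHC class I. Those wild-type arrays are shared with the SPF comparison.

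**Figure D3:**
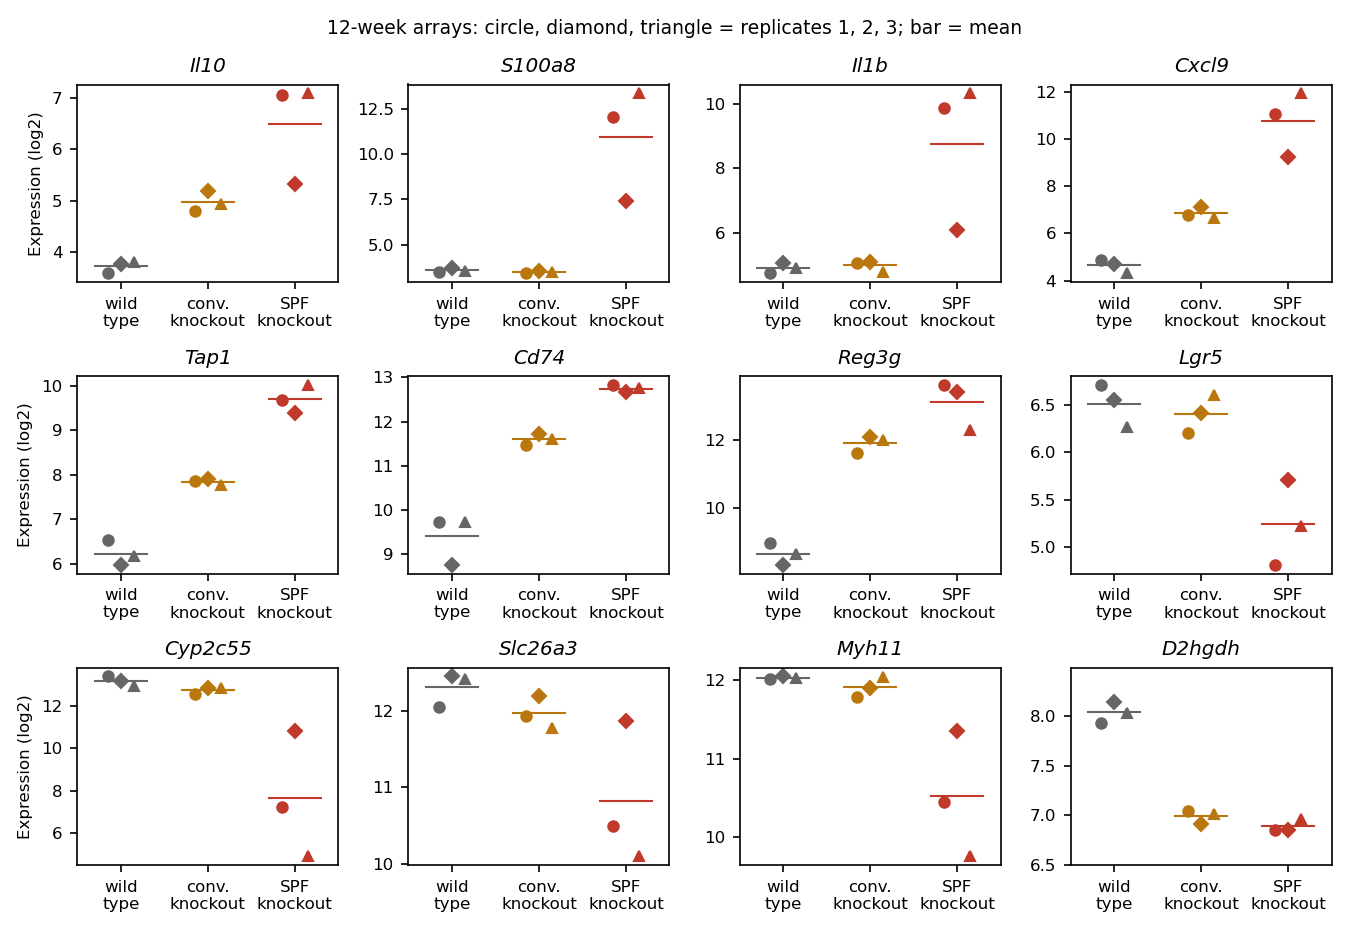
Log2 expression (vertical axis) of 12 genes on the 3 arrays each of wild types, conventional Il10 knockouts and SPF Il10 knockouts at 12 weeks, 1 point per array. S100a8 and Il1b of the conventional knockouts lie at the wild-type level, Tap1, Cxcl9 and Cd74 lie between the groups, and D2hgdh lies below the wild types in both kinds of knockout.

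Both kinds of knockout lay apart from the wild types in D2hgdh and Stk25, which were singled out after their values were seen. D2hgdh, which oxidizes D-2-hydroxyglutarate, read 6.85, 6.85 and 6.97 in the SPF knockouts and 7.94, 8.14 and 8.04 in the wild types, and 7.04, 6.91 and 7.02 in the conventional knockouts. Both kinds of knockout lay below every wild type, the SPF knockouts by 1.15 ± 0.12 (adjusted p = 2.14e-06), and the 2 kinds differed by -0.10 ± 0.12 (adjusted p = 0.579). Its difference from the wild types was -0.86 in SPF knockouts at 9 weeks, -1.01 at 7 weeks and -0.96 in conventional knockouts at 9 weeks. The kinase gene Stk25 differed by -1.41 ± 0.16 from the wild types and by -0.03 between the kinds of knockout. The cause of the differences in these genes was not tested.

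At younger ages fewer genes separated the SPF knockouts from the wild types of their age. At 7 weeks 10 genes were called (0.055%), and at 9 weeks 2155 (11.8%). The calprotectin list had a median of 0.02 at 7 weeks, 0.90 at 9 weeks and 3.22 at 12 weeks. The MHC class I list went from 0.47 and 0.83 to 1.19, the xenobiotic list from -0.10 and -0.37 to -1.54, and the smooth muscle list from -0.15 and -0.63 to -1.05. The type I interferon list had medians of 0.84, 0.66 and 0.63. Of the 10 genes called at 7 weeks 8 were called in the same direction at 12 weeks, and of those called at 9 weeks 1660 were, which is 77.0% of the 9-week calls and 26.2% of the 12-week calls.

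The change of the difference from 7 to 12 weeks was tested directly, and 1623 genes were called (8.92%), 712 upward and 911 downward. Of these 1591 were also called at 12 weeks. The test contains the 12-week difference itself, so calls shared with it, or among genes picked by it, are favoured. The change was 7.26 ± 1.58 for S100a8 (adjusted p = 0.0189) and -5.27 ± 1.36 for Cyp2c55 (adjusted p = 0.0252). Both calls were lost without SPF replicate 2 of 7 weeks or SPF replicate 1 or 3 of 12 weeks, and that of Cyp2c55 also without SPF replicate 1 or wild-type replicate 1 of 7 weeks or wild-type replicate 2 of 12 weeks. In the interferon gamma list 16 of 24 changed upward, among macrophage markers 14 of 19 and in the type I interferon list 1 of 19. Of the 30 largest changes at 12 weeks 20 were called, and 3 without SPF replicate 2 of 7 weeks, 4 without SPF replicate 1 or 3 of 12 weeks, and 7 without wild-type replicate 2 of 12 weeks. The count over all genes ranged from 70 without SPF replicate 2 of 7 weeks to 4547 without SPF replicate 2 of 12 weeks. It was 646 without SPF replicate 1, 916 without SPF replicate 3, 534 without wild-type replicate 1 and 673 without wild-type replicate 2 of 7 weeks, and 108, 85 and 272 without SPF replicate 1, SPF replicate 3 and wild-type replicate 2 of 12 weeks. From 9 to 12 weeks limma called 0 genes (0.0%), with 2416 at an unadjusted p under 0.05, 2768 calls with array weights and 1823 without SPF replicate 2 of 12 weeks.

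**Figure D4:**
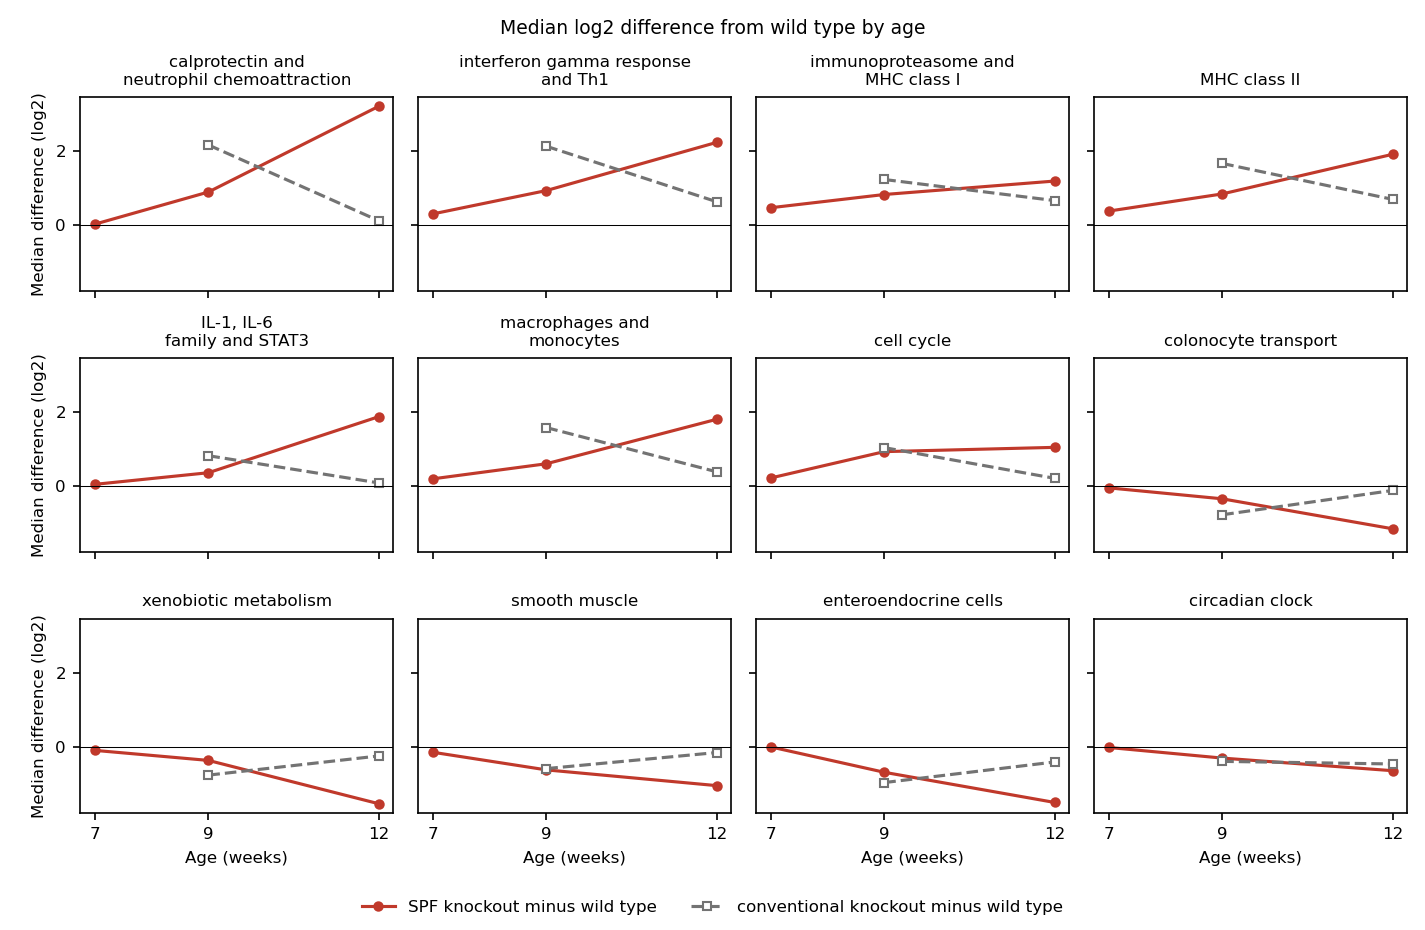
Median log2 difference of 12 gene lists (1 panel each) against age in weeks, for SPF knockouts minus wild types at 7, 9 and 12 weeks (red) and conventional knockouts minus the same wild types at 9 and 12 weeks (grey, dashed). The red line of the calprotectin list runs from 0.02 to 3.22, and the grey line of the same list from 2.17 at 9 weeks to 0.12 at 12 weeks.

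The SPF knockouts of 12 weeks were also set beside the conventional knockouts of 9 weeks, which have wild-type arrays of their own. At 9 weeks 4375 genes were called in the conventional knockouts (24.0%). Of these 3331 were called in the same direction in the SPF knockouts of 12 weeks, 76.1% of the conventional calls and 52.6% of the SPF calls, and 3 in opposite directions. The interferon gamma list had a median of 2.13 there against 2.24, the MHC class I list 1.23 against 1.19, the cell cycle list 1.04 in both, the calprotectin list 2.17 against 3.22 and the xenobiotic list -0.77 against -1.54. S100a8 differed from the wild types by 6.98 ± 1.12 in the conventional knockouts of 9 weeks and Cyp2c55 by -2.0 ± 0.96. A test of the difference between these 2 comparisons with limma called 0 genes (0.0%), with 1549 at an unadjusted p under 0.05, 31 calls with array weights and 319 without SPF replicate 2 of 12 weeks. With 3 arrays a group, a missed threshold does not show that the 2 kinds of knockout were alike, and for S100a8 the difference was 0.37 ± 1.58.

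**Figure D5:**
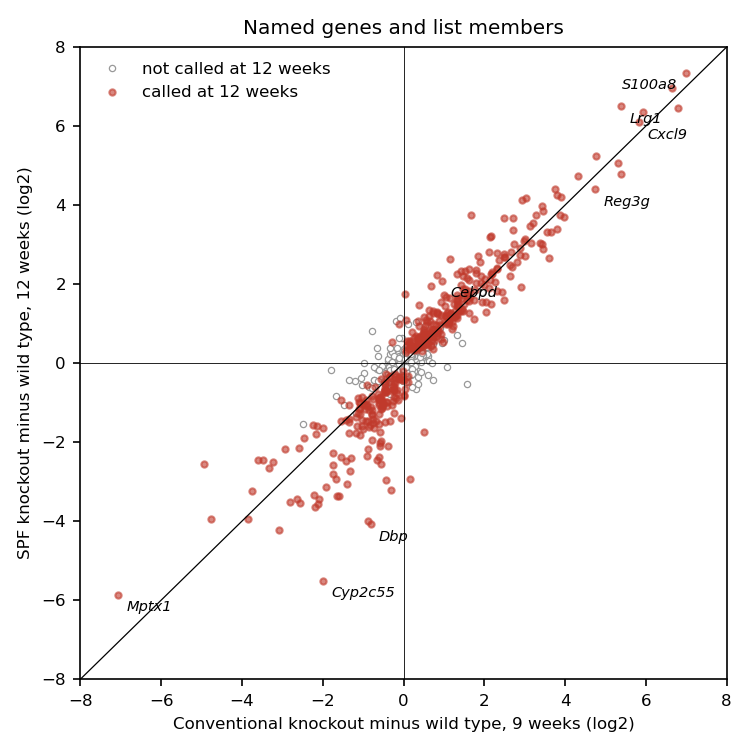
Log2 difference from the wild types of the same age for 732 named genes and list members, in conventional knockouts of 9 weeks (horizontal axis) and in SPF knockouts of 12 weeks (vertical axis), with filled points for genes called at 12 weeks and a line of equality. Cyp2c55 lies below the line (-5.51 against -2.0), Mptx1 above it (-5.86 against -7.07), and S100a8 near it in the upper right corner.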

How the data were processed

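Colon RNA was read on Affymetrix mouse arrays (mouse by their probe sets, though a rat array is named in the series' design text). The log2 values deposited by the authors were normalized with affyPLM, per the series' design text, whose version, background correction and summary were not given in the sources used here. The 27 arrays' values were used as deposited, with their number limiting the precision. Of 45101 probe sets, 34945 had 1 gene symbol, 932 several and 9160 none, and 64 were controls. Each of 18193 genes was read by its probe set with the highest mean.

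One limma model (3.58.1, R 4.3.3) of 9 groups, with 18 residual degrees of freedom, gave every contrast, and calls needed a p under 0.05 after adjustment across the 18193 genes by Benjamini and Hochberg's method. The code was checked on simulated data with the same spread in every group, so the check does not cover groups of unequal spread. Tables were made with pandas 2.3.3 and NumPy 2.4.6 under Python 3.11.15, and figures with matplotlib 3.10.9. The members and gene lists were chosen with earlier results of these data known. Named genes were the 15 largest rises and 15 largest falls with groups that do not overlap, up to 4 called members of each list with the smallest adjusted p (where under 2 were called, the 2 members with the highest mean), Il10, the 6 largest called differences within 5 Mb of it, and the 6 largest rises and falls of other contrasts. Further list members were named after their values were seen. Of 782 list members 731 were measured. Alternatives were a replicate block, quantile normalization again, centring, dropping the lowest 40% of genes by mean, the mean of probe sets, all probe sets, an intensity trend, array weights, a minimum log2 difference of 1, only the groups compared, and leaving out each array. List counts under them were added after seeing the data.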

Additional observations from a re-analysis of the deposited data

Results flagged for a closer look

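The difference between SPF knockouts and wild types changed from 7 to 12 weeks by a direct test in 1623 genes. The genes named next were picked by the 12-week difference, which this test contains, so the choice favours large changes among them. Among the genes with the largest rises at 12 weeks the difference grew by these log2 amounts: S100a8 7.26, S100a9 6.87, Lrg1 4.84, Cxcl5 6.23, Cxcl9 4.13, Sprr2h 5.16, Iigp1 2.99, Lcn2 4.30, Mmp10 4.34, Cxcl10 3.90, Mfsd2a 3.43 and Cxcl2 3.99. Among the largest falls it moved by these log2 amounts: Cyp2c55 -5.27, Cyp4b1 -3.07, Dbp -4.12, Acaa1b -3.42, Sult1c2 -3.47, Gsdmc2 -3.34, Dio1 -3.11 and Ces1g -3.02. Most of these tests missed the threshold without SPF replicate 1 or 3 or wild-type replicate 2 of 12 weeks. The same held without SPF replicate 2 of 7 weeks. The causes were not tested.

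Probe sets outside the gene table, which carry several symbols or none, also differed. Of 10092 such probe sets 1650 were called at 12 weeks (16.3%), 643 higher and 1007 lower.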

How the results depend on the processing

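With 3 arrays a group and samples picked by the submitters, these counts describe these colons. Of the 181 called genes that the rule named, 0 changed direction under any alternative and 85 missed the threshold in at least 1. For 84 this happened in the fit of only the groups compared. That fit has fewer degrees of freedom and takes its spread from those groups alone. Like the replicate block and the intensity trend, it leaves each difference unchanged and so could not reverse a direction. Nor can leaving out 1 array reverse a gene whose groups do not overlap. Why calls were lost was not tested for any alternative. Of 45 lists 36 had a count that moved by over 1.5 times in at least 1 alternative.

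Against 6329 calls for SPF knockouts and wild types at 12 weeks, testing all probe sets gave 11893, a minimum log2 difference of 1 gave 1446 and only the groups compared gave 1321. Leaving out 1 array gave 4533 to 7339. Against 4480 for SPF and conventional knockouts, the same alternatives gave 7513, 938 and 20, array weights 6997, and leaving out 1 array 1357 to 6246. Against 1623 for the change from 7 to 12 weeks, the minimum difference gave 784, only the groups compared 8, array weights 4540, and leaving out 1 array 70 to 4547. Against 0 for the change from 9 to 12 weeks, array weights gave 2768 and leaving out 1 array 0 to 1823. Against 0 for SPF knockouts of 12 weeks and conventional knockouts of 9 weeks, array weights gave 31 and leaving out 1 array 0 to 319.

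The labels do not say what a shared replicate number marks. Deviations of same-numbered SPF and wild-type arrays correlated at 0.232, 0.031 and 0.049, and the numbers were not used to pair the samples. With the replicate block the 5 counts, in the order above, were 6031, 4125, 1345, 1 and 0.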
